A study of Mus musculus with 80 samples.

Results

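The genes described here, grouped by symbol, mostly encode subunits of respiratory complexes III and IV and of ATP synthase, together with cytochrome c. They were all rows of the normalised table whose symbol starts with Uqcr, Atp5, Cox4, Cox5, Cox6, Cox7 or Cox8 or is Cyc1 or Cycs, which gave 43 of the 10842 genes in the table: 9 of complex III, Cycs for cytochrome c, 16 of complex IV and 17 of ATP synthase. Complex III passes electrons from ubiquinol to cytochrome c, a small carrier protein, and complex IV passes them on to oxygen. Both pump protons across the inner mitochondrial membrane, and ATP synthase uses the resulting gradient to make ATP. Oxidative muscle fibres, which hold more mitochondria than glycolytic ones, use this chain most, and several complex IV subunits have a heart-and-muscle isoform beside a widely expressed one.

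Expression was measured with GeoMx, an assay that hybridises barcoded probes to a tissue section, releases the barcodes of an outlined area with light and counts them, here with the mouse Whole Transcriptome Atlas probe set. The 80 outlined areas (regions) lay on flash-frozen 8 µm cross sections of the tibialis anterior, a fast muscle of the lower leg, from 12 C57Bl/6 mice. The 6 tau mice (animals T7, T13, T14, T15, T20 and T30) are labelled tauopathy and the 6 control mice (C2, C3, C16, C20, C30 and C40) control, and the series describes the tauopathy treatment as expression of P301L tau, a human disease mutant of the microtubule-binding protein tau. All animals are labelled WT in genotype and all regions Myofibers in cell type. The name of the deposited data adds AAV8, a viral vector serotype. Age, promoter, dose, time after delivery and what the controls received are not stated in the labels, so effects of vector and tau cannot be told apart. The labels name 4 region types: fibres with central nuclei, nerve bundle, surrounding artery and normal fibres. T30 had no central nuclei region, which left 5 tau and 6 control animals for that type. Each of the 3 slides held 2 tau and 2 control animals.

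The libraries differed in depth and in slide. Recovered counts per region ran from 145487 to 3356106, with medians of 1499810 in tau regions and 744212 in control regions. The negative probe, which has no target, had medians of 39.1 in tau regions and 28.5 in control regions after normalisation, and slide medians of 25.1, 46.2 and 34.1 for slides 1 to 3. All 13 of 13 listed skeletal fibre markers passed the detection filter, and their summed value lay between 52066 and 248961 in nerve bundle, between 49474 and 261028 in surrounding artery and between 32408 and 265777 in normal fibres. By this summed value the regions labelled nerve bundle and surrounding artery held about as much fibre signal as those labelled normal fibres. No marker of the smooth muscle, Schwann cell, connective tissue, endothelial or fibre lists was at 0 in any region. The lowest value of any gene was 2.26, so the absence of 0 does not show that a marker was detected. Labelled sex was set against the Y-linked gene Eif2s3y, whose median was above 1.5 times the negative probe in C2, C16 and T13, labelled female, and below the negative probe in C20, C30, C40 and T14, labelled male. Labelled sex was used only in alternative fits. In tissue areas like these, fewer cells of a type and less RNA per cell cannot be told apart.

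Promoter windows were searched for short strings that some members might share. RefSeq windows on GRCm38.p6, from 250 bases before to 50 bases after the annotated start, were found for 32 of the 43 members. NRF1, GABPA (an ETS factor) and ERR-alpha are known activators of nuclear genes for mitochondrial proteins, so their core letters were searched on both strands. Shares are per gene with a window, and a gene can have more than 1 window. The NRF1 core GCGCATGC was in 7 of the 32 members, 21.9%, against 3.05% of 27025 genes. These were Uqcrc1, Uqcr11, Cycs, Cox6a1, Atp5g2, Atp5k and Atp5l. The ETS core CCGGAAGT was in 4 (Uqcr11, Uqcrh, Cox8a and Atp5h), 12.5% against 4.31%. The ERR core AAGGTCA was in 4 (Atp5e, Atp5g3, Atp5k and Atp5l), 12.5% against 5.38%. In all, 12 of 32 members with a window, 37.5%, held at least 1 of these strings, against 12.2% of all genes with a window. Among 37 genes of complexes I and II with a window, 4 held the NRF1 core, 1 the ETS core and 4 the ERR core. The median GC content was 56.3% over the members' 35 windows and 52.7% over all 32851 windows. Printed here are the windows of the 3 members with the firmest difference between region types that have a window (Uqcrc1, Atp5g1 and Atp5g3) and of Cox7c, the member with the smallest p between tau and control. Capitals mark the motif letters: in Uqcrc1 the NRF1 core on both strands, overlapping close to the start site, and in Atp5g3 the ERR core on the reverse strand. Atp5g1 and Cox7c held none of the 3 strings. The windows lie at chr9:108936398-108936697 on the plus strand for Uqcrc1, and on the minus strand at chr11:96075582-96075881 for Atp5g1, chr2:73911277-73911576 for Atp5g3 and chr13:86046746-86047045 for Cox7c.
Uqcrc1: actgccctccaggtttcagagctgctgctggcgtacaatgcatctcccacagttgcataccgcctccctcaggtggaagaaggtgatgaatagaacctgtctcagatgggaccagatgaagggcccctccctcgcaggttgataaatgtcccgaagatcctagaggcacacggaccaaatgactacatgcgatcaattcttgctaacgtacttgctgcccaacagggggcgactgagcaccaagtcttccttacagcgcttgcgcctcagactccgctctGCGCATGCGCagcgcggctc
Atp5g1: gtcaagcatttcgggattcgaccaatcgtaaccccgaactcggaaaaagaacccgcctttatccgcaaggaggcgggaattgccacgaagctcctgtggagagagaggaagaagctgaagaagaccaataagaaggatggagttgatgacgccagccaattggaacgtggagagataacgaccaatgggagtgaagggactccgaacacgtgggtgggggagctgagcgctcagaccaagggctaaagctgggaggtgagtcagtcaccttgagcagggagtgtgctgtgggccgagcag
Atp5g3: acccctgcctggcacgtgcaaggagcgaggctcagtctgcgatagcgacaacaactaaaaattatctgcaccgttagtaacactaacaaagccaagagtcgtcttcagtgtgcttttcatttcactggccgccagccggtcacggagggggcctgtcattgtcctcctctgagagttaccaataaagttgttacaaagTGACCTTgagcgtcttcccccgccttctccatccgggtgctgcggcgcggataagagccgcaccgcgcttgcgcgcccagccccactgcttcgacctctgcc
Cox7c: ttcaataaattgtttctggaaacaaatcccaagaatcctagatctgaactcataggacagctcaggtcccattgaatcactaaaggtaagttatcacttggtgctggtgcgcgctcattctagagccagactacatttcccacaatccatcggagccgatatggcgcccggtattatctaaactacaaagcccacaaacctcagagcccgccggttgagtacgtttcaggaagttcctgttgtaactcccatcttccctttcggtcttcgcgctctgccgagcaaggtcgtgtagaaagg

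In normal fibres of control animals the members spanned a wide range of probe values, with complex IV holding both ends. Values are Q3-normalised probe values, with no scaling for probe efficiency or gene length, so their order across genes is an order of probe signal and not of transcript number. Cox6a2, the heart-and-muscle form of subunit 6A, stood first at 3286 ± 1859 (SD, n = 6), with a lowest, median and highest animal of 929, 3746 and 5263. Atp5a1, the nucleotide-binding alpha subunit of ATP synthase, and Atp5b, its catalytic beta subunit, followed at 2967 ± 1640 and 2254 ± 1120. Next were Atp5g3 at 1099 ± 571 and Cox4i1, the general form of subunit 4, at 1011 ± 503. The first 3 lay within 1 SD of each other across animals. Within every control animal, however, Cox6a2 lay above Atp5a1 and Atp5a1 above Atp5b. Atp5g3 and Cox4i1 also lay within 1 SD, and their order differed between animals. On the log2 scale they were at 8.598 and 8.603 in C3, and at 10.37 and 10.18 in C30. The gap between Atp5b and Atp5g3 was larger than either SD. The highest complex III gene was Uqcrb, a small subunit, at 379 ± 168, and the lowest was Uqcr10 at 97.7 ± 28.6. Cycs stood at 249 ± 95.8. Atp5g1 was the lowest ATP synthase gene at 230 ± 81.4, so that the 3 genes for the same mature subunit c, Atp5g3, Atp5g2 and Atp5g1, had probe values of 1099, 562 and 230.

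At the low end, 5 complex IV genes lay close to the negative probe. Cox7c, a small structural subunit, had a median of 2.28 times the negative probe in control normal fibres. Cox6a1 and Cox8a, the widely expressed forms of subunits 6A and 8, had medians of 1.68 and 1.63 times. Cox4i2, the lung and hypoxia-linked form of subunit 4, was at 1.08 times, and Cox8c, a testis form, at 0.717 times. Cox8c was the 1 member that failed the filter of 1.5 times the negative probe in at least 10% of regions, so 42 members were among the 10188 genes tested. For these low genes a difference that the negative probe also shows cannot be read as expression.

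The 3 isoform pairs with a muscle form had that form first in every group. Pair differences are on the log2 scale, per animal. They are muscle form minus general form, and for subunit 4 Cox4i2 minus Cox4i1. Cox6a2 minus Cox6a1 was 5.10 ± 1.19 in tau normal fibres and 5.50 ± 1.03 in control normal fibres (SD, n = 6 each), with Cox6a1 close to the negative probe, whose values were higher in tau. Cox8b minus Cox8a was 2.77 ± 0.596 in tau and 2.45 ± 0.417 in control. Cox7a1 minus Cox7a2 was 0.86 ± 0.344 in tau and 0.96 ± 0.218 in control, the narrowest gap. Of these 3 pairs, no animal in any region type had the general form above the muscle form. Cox4i2 stayed far below Cox4i1, by −4.20 ± 1.45 in tau and −4.50 ± 1.14 in control.

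Between tau and control, the Cox8 pair had the smallest p. The tau minus control difference in Cox8b minus Cox8a, averaged within slides, was 0.33 in normal fibres (exact two-sided permutation within slides, p = 0.0463), 0.28 in central nuclei (exact permutation p = 0.00926, the smallest that the design allows) and 0.35 in surrounding artery (exact permutation p = 0.0370). In nerve bundle it was 0.07 (exact permutation p = 0.704). Over the 28 tests on pairs, the lowest Benjamini-Hochberg adjusted value was 0.216, so none passed 0.05. The Cox4i2 minus Cox4i1 difference was 0.82 in central nuclei and 0.57 in nerve bundle (exact permutation p = 0.0278 and 0.0463, adjusted 0.216 for both), with Cox4i2 near the negative probe. Between region types, the smallest p was that of the same pair in surrounding artery against normal fibres, −0.36 ± 0.493 (SD, n = 12), above 0 in 4 of 12 animals (exact sign-flip permutation p = 0.0278, adjusted 0.216).

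**Figure D1:**
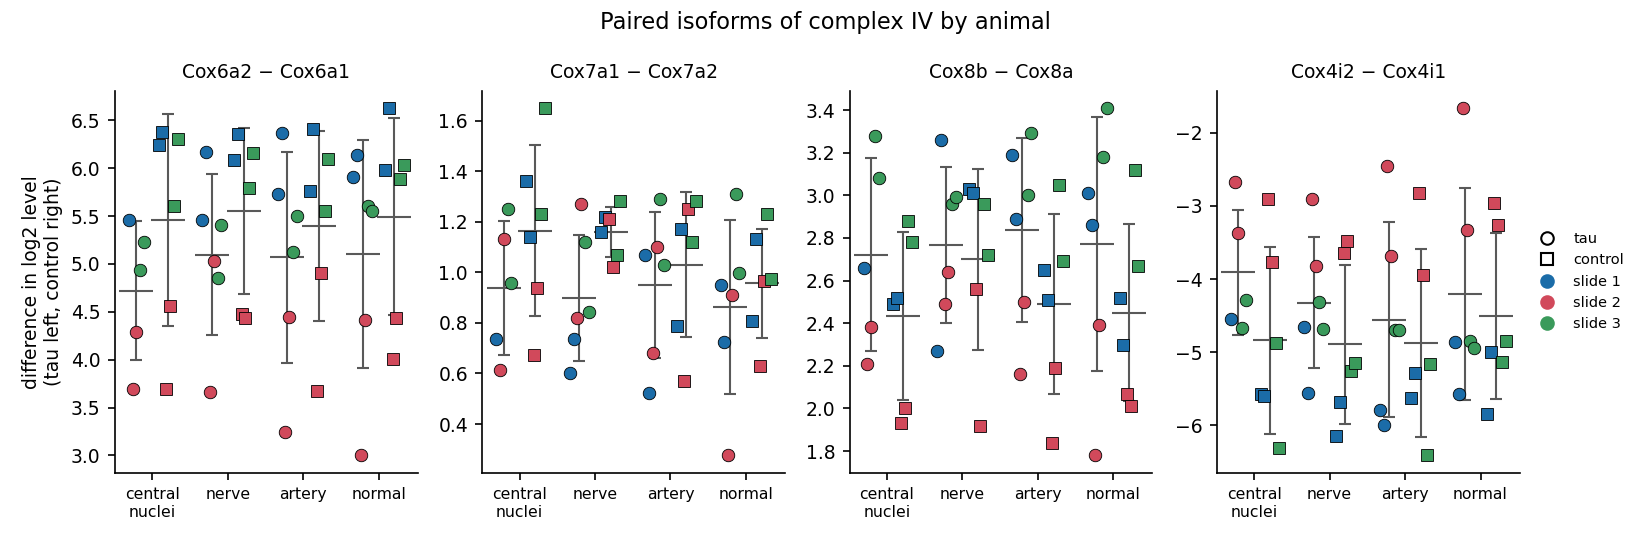
Log2 difference between the paired isoforms per animal (circles tau, squares control, colours slides; bars, mean ± SD over animals), by region type. Cox6a2, Cox7a1 and Cox8b lie above their general forms in every animal, and the tau and control animals overlap in each panel.

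On slide 2 the members were low. In normal fibres the median member difference of slide 2 from slides 1 and 3 was −1.5 on the log2 scale. For 34 of 42 members all 4 animals of slide 2 lay below all 8 others there, against 17.6% of all 10188 genes. The counts were 36 of 42 in central nuclei (19.2% of all genes), 19 of 42 in nerve bundle (10.9%) and 36 of 42 in surrounding artery (19.4%). The shift was common to highly expressed genes: the median of the 500 highest genes in normal fibres was −1.33 and that of complexes I and II −1.27, while the median of all genes tested was 0.15. Slide 2 also had the highest negative probe values, and their part in the result was not tested.

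The low slide is plain in single genes. Cox6a2 ranged from 395 to 1196 in the 4 normal fibre values of slide 2, against 4033 to 5324 on slide 1 and 3243 to 4249 on slide 3. Uqcrb ranged from 111 to 202 on slide 2, against 491 to 595 and 439 to 469. The values of Cox7c, a gene close to the negative probe, overlapped between slides, at 63.6 to 98.6 on slide 2 against 68.7 to 145 and 68.5 to 179. The negative probe was itself highest on slide 2, with medians over all regions of 25.1, 46.2 and 34.1 on slides 1 to 3. This overlap therefore cannot be read as like expression on the 3 slides. The 43 members together took 1.09 ± 0.358% of the recovered counts in normal fibres of slide 2, against 2.65 ± 0.256% on slide 1 and 2.66 ± 0.344% on slide 3 (SD, n = 4 each). The lowest share of any animal was 0.606%, in tau animal T14, whose normal fibres also had the lowest values of Mb (myoglobin) and Myh1 (the fast oxidative-glycolytic type 2X myosin), 90.1 and 100.4. T14 had 1 normal fibre region. Slide was a term in the tau comparisons within region types and in their mean, a choice made with earlier results of these data known. The later tests of whether region differences differed between tau and control had no slide term.

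**Figure D2:**
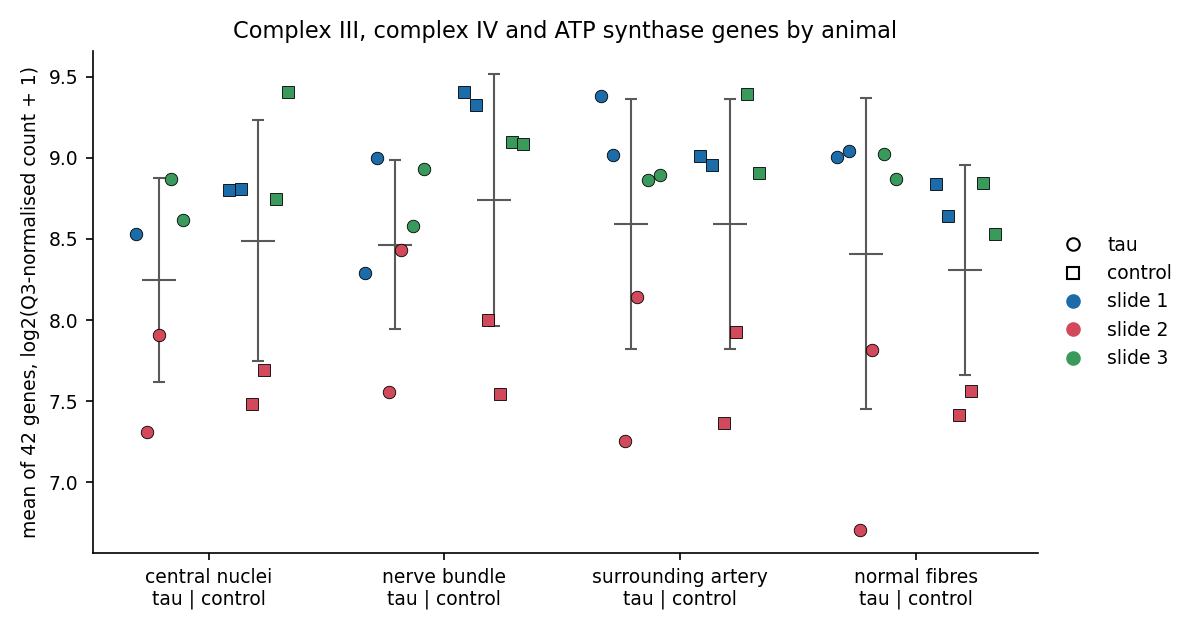
Mean log2(value + 1) of the 42 tested members in each animal and region type, tau left of control (circles tau, squares control, colours slides; bars, mean ± SD over animals). The 4 animals of slide 2 lie below the others in normal fibres, and T14 is lowest there at 6.705.

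No member passed the threshold between tau and control with limma at the detection filter used here. On animal means with slide as covariate, 0 of 42 members had a Benjamini-Hochberg adjusted p under 0.05 in normal fibres, central nuclei, nerve bundle, surrounding artery or the mean of the 3 types that every animal has. In each of these 5 comparisons the share of all 10188 genes called was 0.0%. Within the 4 region types no member had its tau and control animals fully apart. This count ignored slide and was not made for all genes, so no conclusion is drawn from it. Under a stricter filter 2 members, Atp5a1 and Cox7c, were called in central nuclei, where 14.3% of the fewer genes kept by that filter were. With edgeR on recovered counts 0 members were called in the 4 types, against 195 of all genes (1.91%) in central nuclei and 0.0% in the other 3. At an unadjusted edgeR p under 0.05 there were 2 of 42 members in normal fibres (11.9% of all genes), 16 in central nuclei (18.4%), 6 in nerve bundle (8.62%) and 2 in surrounding artery (9.01%). The members took 2.21 ± 0.989% of counts in tau normal fibres and 2.06 ± 0.715% in control normal fibres. In nerve bundle they took 2.07 ± 0.594% in tau and 2.85 ± 1.14% in control.

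The members' direction differed between region types. In normal fibres 25 of 42 differences lay above 0, with a median of 0.07 log2 (all genes 0.06). In central nuclei 33 of 42 lay below 0, with a median of −0.25 (all genes 0.08, the 500 highest genes −0.25). In nerve bundle 36 of 42 lay below 0, with a median of −0.31 (all genes 0.11, the 500 highest −0.16). Markers of other cells differed there too, none called: 5 of 5 Schwann cell markers lay above 0 (median 0.45, 3 at an unadjusted p under 0.05) and 6 of 7 smooth muscle markers below 0 (median −0.24), with Acta2, smooth muscle actin, at −1.18 ± 0.279 (limma adjusted p = 0.300). Their part in the members' differences was not tested. Surrounding artery had 19 of 42 above 0 and a median of −0.01. By complex, 15 of 17 ATP synthase genes lay below 0 in central nuclei and 16 of 17 in nerve bundle, against 7 of 9 and 8 of 9 for complex III and 11 of 15 in both for complex IV.

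Highly expressed members tended to lie lower in tau than weakly expressed ones. Across the 42 members, Spearman's correlation of level with the tau minus control difference was −0.59 in normal fibres, −0.76 in central nuclei, −0.72 in nerve bundle and −0.60 in surrounding artery. This is a description across genes of the same libraries, and genes are not independent replicates. The tau libraries were deeper and had higher negative probe values. With the negative probe value as a second covariate the median member difference was 0.30 in central nuclei and 0.13 in nerve bundle, so the direction of the whole list turned.

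**Figure D3:**
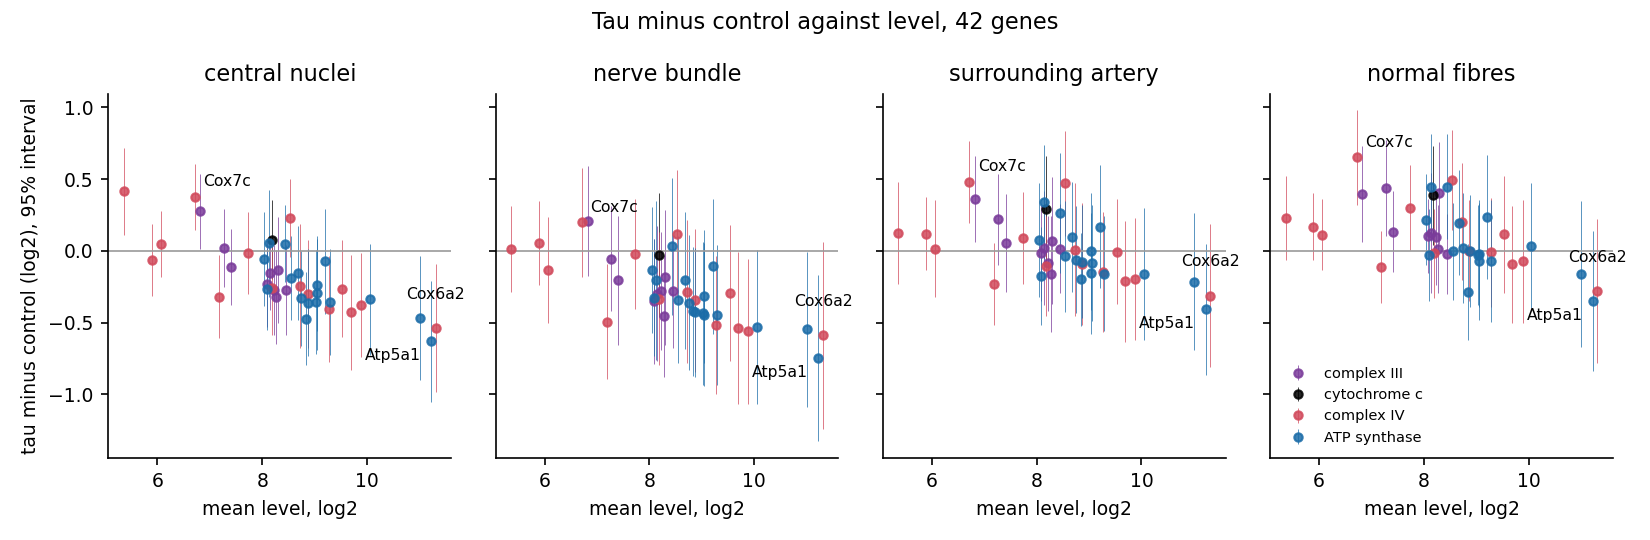
Tau minus control difference (log2, with 95% interval) of each of the 42 tested members against its mean log2 level, by region type; no member reached an adjusted p under 0.05. Atp5a1 and Cox6a2, at high levels, lie below 0 in every panel and Cox7c, at a low level, above 0.

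Unadjusted p-values under 0.05 recurred for some members across region types, which come from the same animals. Cox7c and Uqcr10, both higher in tau, had one in normal fibres, central nuclei and surrounding artery, and Cox8b, also higher, in normal fibres and surrounding artery. Atp5a1, Atp5b, Cox4i1, Cox5b, Cox6c and Cox7a2l, all lower in tau, had one in central nuclei and nerve bundle. In normal fibres 9 of 42 members were on the higher side, against 9.2% of all genes, and 0 on the lower side. In central nuclei 9 were lower (7.42% of all genes) and 3 higher (13.2%). In nerve bundle 7 were lower (2.42%) and 0 higher. In surrounding artery 3 were higher (9.86%) and 0 lower. In the mean of 3 types 2 were lower (3.78%) and 3 higher (16.1%).

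Cox7c had the smallest p of all members in normal fibres, central nuclei, surrounding artery and the mean of 3 types. Its Q3 value in normal fibres had a lowest, median and highest animal of 63.6, 144 and 179 in tau, against 66.4, 68.7 and 129 in control. The groups overlapped there, with the slide 2 tau animals T14, at 63.6, and T7, at 98.6, below the highest control animal. The log2 difference was 0.65 ± 0.158 (SE; 95% interval 0.32 to 0.98; 1.57-fold), with a limma adjusted p of 0.138. In central nuclei the 5 tau values were 95.1 in T13, 87.4 in T14, 114 in T7, 179 in T15 and 130.0 in T20. The 6 control values there were 69.3 in C2, 75.7 in C30, 72.8 in C3, 71.3 in C40, 108 in C16 and 129.7 in C20. Every tau animal lay above the control animals of its own slide in central nuclei, although the groups overlapped across slides. The difference was 0.38 ± 0.109 (limma adjusted p = 0.0890). By slide it was 0.43, 0.41 and 0.32 in central nuclei, 0.85, 0.23 and 0.88 in normal fibres and 0.66, 0.36 and 0.43 in surrounding artery, but −0.17, 0.65 and 0.12 in nerve bundle. As a share of the negative probe the medians in central nuclei were 2.82 times in tau and 2.85 times in control.

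Atp5a1, the alpha subunit of ATP synthase, lay on the other side. In nerve bundle its Q3 value had a lowest, median and highest animal of 856, 2122 and 4230 in tau, against 990, 4820 and 7373 in control. In central nuclei the tau values were 2861 in T13, 751 in T14, 1189 in T7, 2815 in T15 and 2229 in T20, against 977 to 5811 with a median of 3939 in control. The log2 difference was −0.75 ± 0.271 in nerve bundle (limma adjusted p = 0.360), −0.63 ± 0.200 in central nuclei (0.108), −0.41 ± 0.214 in surrounding artery (0.450) and −0.35 ± 0.233 in normal fibres (0.532). Atp5a1 was below 0 on all 3 slides in all 4 region types, from −1.25 on slide 1 to −0.04 on slide 2 in nerve bundle. With the negative probe value in the fit the central nuclei difference was 0.04.

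Other members with the smallest p of their group did not pass either. Uqcrc1, a core protein of complex III, had a tau minus control difference of 0.44 ± 0.160 in normal fibres (limma adjusted p = 0.261), with Q3 values of 78.4, 171 and 269 in tau against 93.7, 104 and 182 in control as lowest, median and highest. Uqcr10, a small subunit of the same complex, had the smallest p of complex III in central nuclei, 0.27 ± 0.124 (adjusted p = 0.227), and in surrounding artery, 0.36 ± 0.142 (0.319). Uqcrfs1, the Rieske iron-sulfur protein, had it in nerve bundle, −0.46 ± 0.200 (0.384). Cycs was at 0.39 ± 0.165 in normal fibres (0.321) and −0.03 ± 0.203 in nerve bundle (0.961). Atp5l, a membrane-domain subunit of ATP synthase, was at 0.45 ± 0.175 in normal fibres (0.282). Cox7a2l, placed in complex IV by its symbol alone, was at −0.49 ± 0.189 in nerve bundle (0.369). All groups overlapped.

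Within slides the direction of the whole list was not stable in normal fibres, nerve bundle or surrounding artery. The median member difference by slide, from slide 1 to 3, was 0.23, −0.30 and 0.18 in normal fibres, −0.78, 0.22 and −0.40 in nerve bundle and 0.24, 0.03 and −0.38 in surrounding artery. In central nuclei it was −0.30, −0.01 and −0.45. There 23 of 42 members lay below 0 on all 3 slides and 4 above 0 (Cox4i2, Cox7c, Cox8b and Uqcr10). In nerve bundle only Atp5a1 and Atp5b were below 0 on all 3. Each such slide value sets 2 tau against 2 control animals, or 1 against 2 for central nuclei on slide 1.

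Some neighbouring pathways lay on the same side as the members and others did not, with 0 called. In central nuclei 31 of 43 genes of complexes I and II lay below 0 (median −0.12), 13 of 16 of the citric acid cycle (median −0.28) and 9 of 9 carriers and kinases that move ATP (median −0.38). In nerve bundle 36 of 43 of complexes I and II lay below 0 (median −0.26) and 14 of 16 of the citric acid cycle. Assembly factors of complexes III, IV and ATP synthase had 20 of 36 below 0 in central nuclei (median −0.03) and 16 of 36 in nerve bundle (median 0.01), and regulators of mitochondrial genes 8 of 14 and 7 of 14. In normal fibres the carriers and kinases that move ATP had a median of −0.13, against 0.07 for the members. Fibre type genes had wide differences in the same comparisons, also without calls. Myh2, the type 2A oxidative myosin, had tau minus control differences of 1.51 in normal fibres (limma adjusted p = 0.216) and −2.04 in nerve bundle (0.384). Mb was at −1.03 in nerve bundle (0.381). Their part in the members' differences was not tested.

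Surrounding artery against normal fibres gave the calls on these genes. Differences were taken within each animal and tested with limma over 12 animals. Of 42 members 5 were higher with an adjusted p under 0.05, against 0.717% of all 10188 genes called higher, and 0 were lower. Of the 42 differences 41 lay above 0, with a median of 0.24 log2, against 0.01 for all genes and 0.11 for the 500 highest genes, 32 of which were called higher. At an unadjusted p under 0.05, 39 members were higher, against 9.54% of all genes. Grouped by symbol, the 5 called members were 2 of complex III and 3 of ATP synthase, and 0 of the complex IV members passed.

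Uqcrc1 had the firmest difference, 0.36 ± 0.0693 (SE; 95% interval 0.21 to 0.50; 1.28-fold; limma adjusted p = 0.0181). Its Q3 values had a lowest, median and highest animal of 107, 204 and 259 in tau surrounding artery, against 78.4, 171 and 269 in tau normal fibres. In control animals they were 108, 158 and 293 in surrounding artery and 93.7, 104 and 182 in normal fibres. The levels overlapped, but within animals 11 of 12 had the artery region higher, 5 of 6 tau and 6 of 6 control.

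The other called members moved by like amounts. Uqcrq, a small subunit of complex III, was higher by 0.32 ± 0.0681 (limma adjusted p = 0.0285), from −0.33 to 0.45 within tau animals and from −0.03 to 0.71 within control animals. Atp5g1 and Atp5g3, genes of the membrane subunit c, were higher by 0.29 ± 0.0626 (adjusted p = 0.0308) and 0.33 ± 0.0761 (0.0394), in 11 and 10 of 12 animals. Atp5mpl, a small proteolipid of ATP synthase, was higher by 0.27 ± 0.0625 (0.0407), in 9 of 12 animals. Just outside the threshold lay Atp5k (adjusted p = 0.0540), Cox5a (0.0559), Cycs at 0.24 ± 0.0600 and Cyc1, the haem-carrying cytochrome c1 of complex III, at 0.29 ± 0.0737 (both 0.0637), and Cox4i1 at 0.32 ± 0.0828 (0.0664). The differences of these 5 genes, 0.24 to 0.32, overlapped with those of the called genes, 0.27 to 0.36. Cox4i2 was the 1 member below 0, at −0.04.

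The 5 calls did not hold under several other settings. They fell to 0 with the negative probe subtracted or without regions of 30 counts or fewer at the third quartile (0.00982% of all genes called in each), and with the difference in negative probe value as covariate or without the animal block (0.0% in each). Without any 1 of C16, C20, T13 or T7 0 members were called, with 0.0982% to 0.226% of all genes called, and without C3 or T15 27 were, with 2.2% and 1.6%. Without T20 4 were called and without T30 5 (0.579% and 0.589%). Without slide 2, and without T14, C2, C30 or C40 in turn, 1 remained, Uqcrc1, with 0.196% to 0.324% of all genes called. The median of the members stayed between 0.20 and 0.28 with animals or slide 2 left out.

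**Figure D4:**
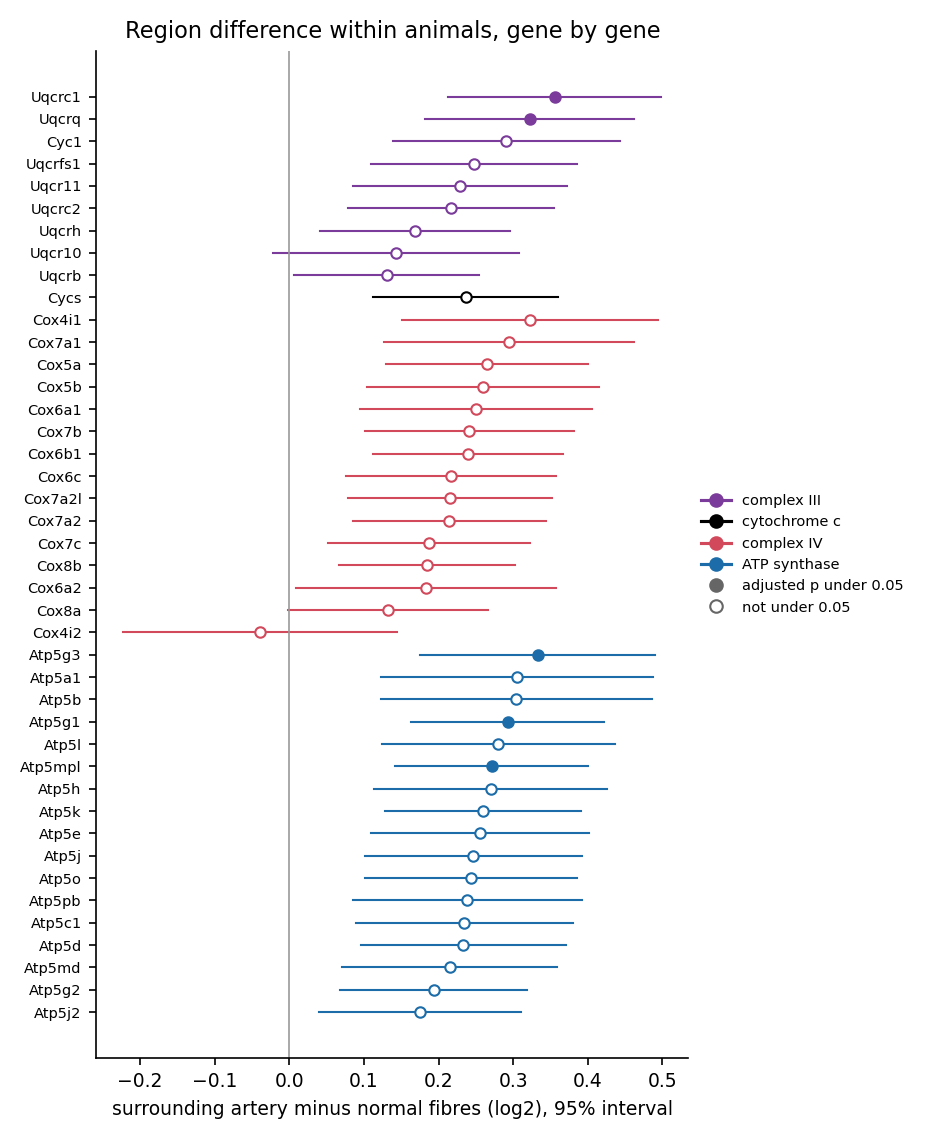
Surrounding artery minus normal fibres for each of the 42 tested members (log2, mean of within-animal differences with 95% interval), grouped by complex; filled points have a limma adjusted p under 0.05. The 5 filled points are Uqcrc1, Uqcrq, Atp5g1, Atp5g3 and Atp5mpl, and all but Cox4i2 lie above 0.

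Other mitochondrial genes went the same way in surrounding artery. All 43 tested genes listed as complexes I and II lay above 0, 3 of them called: Ndufa10 at 0.29, Ndufa4 at 0.27 and Sdha at 0.29. These 43 were listed by symbol (Nduf without Ndufaf, or Sdh), as the members were, so neither list need match a complex exactly. All 16 genes of the citric acid cycle lay above 0, and Fh1 and Dlst were among those called. The muscle regulator of mitochondrial genes Perm1 was higher by 0.37 ± 0.0698 (limma adjusted p = 0.0158), and Ckmt2, the mitochondrial creatine kinase of muscle, by 0.47 ± 0.0897 (0.0162). Assembly factors of complexes III, IV and ATP synthase differed less, with 29 of 36 above 0, a median of 0.06 and 0 called.

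Some fibre type genes and markers of other cells were also called in surrounding artery. Myh1 was higher in surrounding artery by 1.06 ± 0.145 (limma adjusted p = 0.00119) and Mb by 0.93 ± 0.146 (0.00467), both larger than the difference of any member. Myh2 was at 0.94 ± 0.415 (0.271), and 2 of 4 fibre myosins lay below 0. Acta2 was higher by 1.14 ± 0.160 (0.00119), the 1 smooth muscle marker called, and all 7 tested lay above 0. Their summed Q3 value was 895 to 1856 in tau and 902 to 2221 in control surrounding artery, against 678 to 1538 in tau and 848 to 1666 in control normal fibres. Of connective tissue markers 7 of 8 lay above 0, with Dcn called at 0.46 ± 0.0925 (0.0219). Of endothelial markers 7 of 10 lay above 0, with 0 called. Their part in the members' result was not tested.

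**Figure D5:**
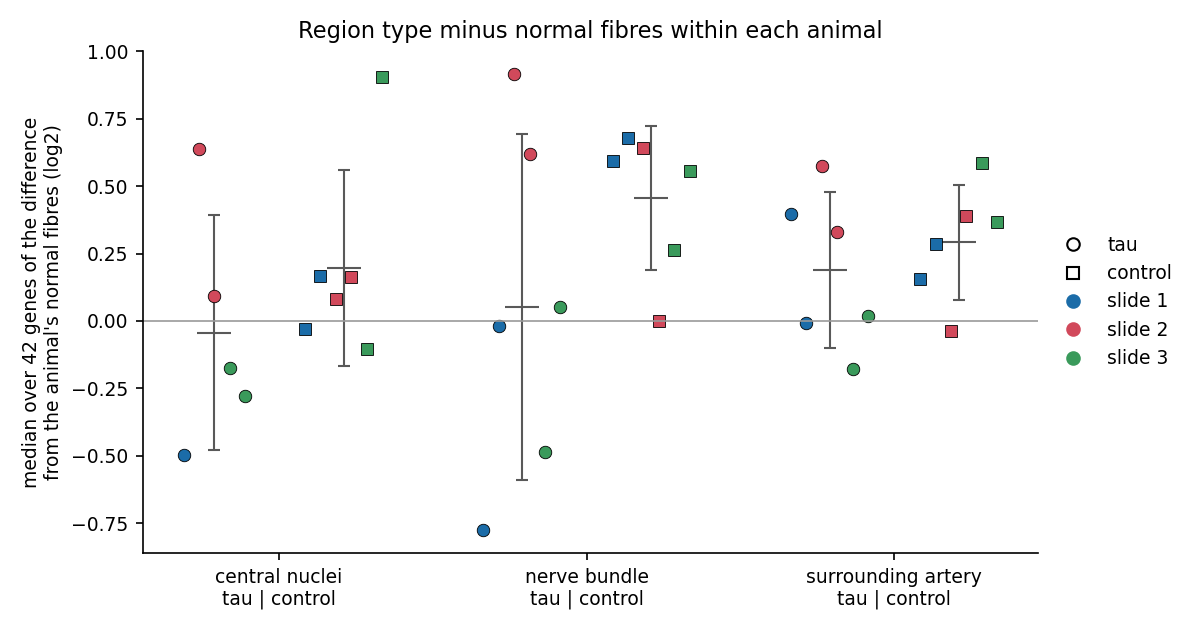
Median member difference from normal fibres (log2) in each animal, for central nuclei, nerve bundle and surrounding artery, tau left of control (circles tau, squares control, colours slides; bars, mean ± SD over animals). In nerve bundle 3 of 6 tau animals lie above 0, and 5 control animals do while C40 lies at 0.00053.

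Nerve bundle regions had a median member difference from normal fibres of 0.27, with all 42 members above 0 and 0 called. Of all genes 0.0196% were called higher. At an unadjusted p under 0.05, 24 members were higher, against 4.2% of all genes, and the lowest limma adjusted p was 0.753. Uqcrc1 was at 0.32 ± 0.101, Uqcrfs1 at 0.30 ± 0.103 and Atp5g3 at 0.40 ± 0.143. The spread between animals was wide. In tau animals the median member difference was −0.776 in T13, −0.0195 in T30, 0.917 in T14, 0.620 in T7, −0.486 in T15 and 0.0534 in T20. In control animals it was 0.592 in C2, 0.679 in C30, 0.641 in C3, 0.00053 in C40, 0.262 in C16 and 0.556 in C20. The C20 nerve bundle value rested on 1 region, the shallowest of all at 145487 counts. The median lay above 0 in 3 of 6 tau animals and, with C40 evenly split at 21 of 42 members above 0, in the other 5 control animals.

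Myoglobin spread in the same animals. Mb in nerve bundle minus normal fibres was −1.61 in T13, −0.143 in T30, 3.31 in T14, 1.68 in T7, −1.22 in T15 and 0.685 in T20. It was 2.04 in C2, 2.81 in C30, 2.78 in C3, 0.154 in C40, 1.10 in C16 and 1.94 in C20. The tau animals with members below 0, T13, T30 and T15, were those with Mb below 0. Of the Schwann cell markers, 3 of 5 tested lay above 0, with summed values of 380 to 826 in tau and 301 to 569 in control nerve bundle, against 304 to 588 in tau and 312 to 527 in control normal fibres. The part of these genes in the members' result was not tested.

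Fibres with central nuclei, a sign of regeneration in muscle, did not differ detectably from normal fibres in these genes. The median member difference was 0.07, with 38 of 42 above 0, 0 called and 0 at an unadjusted p under 0.05. Of all genes 0.0% were called and 2.36% had an unadjusted p under 0.05 in either direction. Atp5mpl had the smallest p of ATP synthase, 0.16 ± 0.0836 (95% interval −0.01 to 0.34), and Uqcrc1 that of complex III, 0.13 ± 0.101 (−0.08 to 0.34). In complex IV it was Cox7a1, the muscle form of subunit 7A, at 0.18 ± 0.123 (−0.08 to 0.44). The lowest limma adjusted p of the members was 0.9996.

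Whether the region differences themselves differed between tau and control was tested as an interaction, without a slide term. In each region type 0 members and 0.0% of all genes were called. In nerve bundle all 42 interactions lay below 0 with a median of −0.38 (all genes 0.06), and 5 had an unadjusted p under 0.05 on the lower side, against 2.38% of all genes. These were Uqcrc1 at −0.49 ± 0.202, Atp5g1 at −0.65 ± 0.279, Uqcrfs1 at −0.47 ± 0.206, Uqcrq at −0.59 ± 0.264 and Uqcrh, the hinge protein of complex III, at −0.45 ± 0.206 (limma adjusted p = 0.751 for all 5). In central nuclei 41 of 42 lay below 0 with a median of −0.22, with 0 members and 3.12% of all genes at an unadjusted p under 0.05. In surrounding artery 39 of 42 lay below 0 with a median of −0.10, with 1 member, Uqcrq at −0.33 ± 0.136 (limma adjusted p = 0.826), and 2.49% of all genes under 0.05 on the lower side.

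The normal fibre values enter every one of these interactions, so the 3 region types are not separate evidence. The nerve bundle interaction was −3.54 for Myh2, −2.35 for Myh1 and −1.35 for Mb, and 40 of 43 genes of complexes I and II lay below 0 with a median of −0.37. On slides 1 and 3 alone, a choice made after the data were seen, 6 members were called lower in the nerve bundle interaction (Atp5l, Cox7a1, Atp5g3, Cox6c, Uqcrq and Uqcr11), against 0.677% of all genes called.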

How the data were processed

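The authors deposited 1 table of Q3-normalised probe counts (upper quartile scaling, unit signal, linear, no background subtraction), per the file headers; mm10 is the build in the submitters' processing notes, and no aligner or counting software is stated. The third quartile was 79.1 in 78 of 80 regions. Whole counts were recovered from each region's step, with 99.98% of values whole within 0.02 of a step. Treatment, animal and region type came from the labels and slide from the file header. No 2 regions held identical values.

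Members and lists were chosen with earlier results of these data known. Values were taken as log2(value + 1) and averaged over the regions of 1 type in 1 animal, since regions share animals, so the animal is the replicate. Animals had 1 to 3 regions of a type, so some animal values rest on 1 region. No source here states how the regions were chosen. Genes at 1.5 times the negative probe in at least 10% of regions were kept (10188 of 10842). limma 3.58.1 (R 4.3.3, trended variance) tested tau against control with slide as covariate, and region types against normal fibres on within-animal differences with treatment as covariate, with Benjamini-Hochberg adjustment over all genes tested and a threshold of 0.05. The block is by animal, because the region types come from the same animals. Tau and control animals share no numbering that pairs them.

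Isoform pairs were tested by exact permutation of treatment within slides and by exact sign flips over animals. With edgeR 4.0.16 on the recovered counts summed per animal, 195 genes (0 members) were called between tau and control in central nuclei and 0 in the other 3 types. Named genes are the highest and lowest member of each complex, the isoform pairs, those past the threshold, otherwise the smallest p of a complex, and up to 3 genes of each other list. Genes chosen after their values were seen are those just outside the threshold. Promoter windows were searched with Python 3.11.15 for exact strings. Regions have no interval for counting error here: the spread over animals is given. The limma fits of tau against control in normal fibres and of surrounding artery against normal fibres were first tested on simulated data. The exact permutations were tested on values with known answers. The other fits, edgeR among them, were not tested in this way.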

Additional observations from a re-analysis of the deposited data

Results flagged for a closer look

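In 150 groups of 5 or 6 animals checked for a lone extreme value, 3 were found; chance gives about 1 in 20. Cox6a1 in control central nuclei was lowest in C40, at 5.68 log2, with the other 5 control animals between 5.98 and 6.12. Cox8a in tau surrounding artery was lowest in T14, at 5.45 log2, with the others between 5.99 and 6.25. Both genes lie close to the negative probe, and both animals are on slide 2. The median member difference of central nuclei from normal fibres was highest in control animal C20, at 0.906, with the other control animals between −0.103 and 0.168, and Mb in the same comparison was 2.41 higher in C20. The part of Mb was not tested.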

How the results depend on the processing

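Depth and background limit the weakest members, which lie near the negative probe. Between tau and control, the median member difference was 0.30 in central nuclei and 0.13 in nerve bundle with slide and the negative probe value in the fit, and Atp5a1 in central nuclei was 0.041; the cause was not tested. In normal fibres the median changed sign to −0.08 with the negative probe subtracted and to −0.05 without regions of 30 counts or fewer at the third quartile. Members called in central nuclei were 2 under a stricter filter (Atp5a1 lower, Cox7c higher), with 14.3% of the genes it kept called. They were 1 after quantile normalisation (2.31% of all genes) and 0 to 3 with 1 animal left out, the 3 without T7 (3.66%). For the mean of 3 types 1 was called under the stricter filter (8.63% of the genes it kept). With 1 animal left out 0 to 6 were called, the 6 without T7 (3.65% of all genes). In normal fibres 0 to 4 were called, the 4 without T14 (0.0883%). Fewer genes are tested under the stricter filter; the other causes were not tested.

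In surrounding artery against normal fibres, the 5 called members became 11 under the stricter filter (4.25% of the genes it kept called). They became 3 with slide as a covariate (0.471% of all genes) and 1 after quantile normalisation (0.373%). They fell to 0 with the negative probe subtracted, without regions of 30 counts or fewer, or with the difference in negative probe value as covariate. Without the replicate block 0 were called, with the same medians of 0.24 in surrounding artery and 0.27 in nerve bundle. With 1 animal left out, 0 to 27 were called. Without the animals of slide 2, chosen after the data were seen, 1 was called there and 6 in the nerve bundle interaction. In all alternatives at least 39 of the members tested stayed above 0 in surrounding artery. With the negative probe subtracted, Cox6a2 minus Cox6a1 in nerve bundle against normal fibres was −0.44 and Cox8b minus Cox8a in surrounding artery −0.31, against 0.03 and 0.05. Among all genes, calls between tau and control in central nuclei were 0, against 448 under the stricter filter, 235 after quantile normalisation, 175 with the negative probe subtracted and 195 with edgeR. In normal fibres they were 0, against 51 with slide and labelled sex as covariates. Another pseudocount, no filter and leaving out the region named FLAG moved no count of members called.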
